A study of Oryza sativa with 2 samples.

Results

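BAHD acyltransferases are plant enzymes that move an acyl group from its coenzyme A thioester onto an alcohol or an amine. Their products include benzoylated and hydroxycinnamoylated amides, anthocyanin esters and, in grasses, the ferulate and p-coumarate groups carried by arabinoxylan and by lignin monomers. In rice annotation most of them carry only the family name of their domain, "Transferase", so candidates were gathered here from descriptions. A row was taken when its description held transferase domain containing, transferase family protein, benzoyltransferase, acyltransferase or anthranilate, unless it also held a word for another transferase type such as glycosyl, methyl or phospho. This gave 273 of the 37645 rows that are not short RNA rows, out of 76131 rows in all. Of the 37645 rows, 1771 are named by symbol and have no description, so the rule could not take them. Any BAHD genes among those are missing from the set.

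Leaves of rice (Oryza sativa, cultivar Ilmi) were sampled at an age of 2 weeks from seedlings grown without stress. The control (NT) was nontransgenic, and the other group carried PGD1:Roc10, in which a whole-body promoter drives Roc10, a homeodomain-leucine zipper transcription factor that the series title ties to lignin synthesis and drought tolerance. Each group is 1 library of total RNA, with 27683296 mapped read pairs for NT and 21866514 for PGD1:Roc10. The sources used here do not say how many transgenic lines or plants went into a library. The comparison asks which of these genes differ in level between leaves that overexpress Roc10 and leaves that do not. With 1 library per group there was no test, no difference has a replicate check, and differences are described by size alone. In whole leaves, fewer cells of a type and less RNA per cell cannot be told apart. No row carries the name Roc10, so the label of the transgenic library was not checked by its own gene. Leaf markers were abundant in both libraries: 14 rows described as chlorophyll a/b-binding proteins summed to 19100 FPKM in NT and 18600 FPKM in PGD1:Roc10. Levels are in FPKM, a fragment count scaled by transcript length and by library size, and where a pair of levels is given the NT value comes first.

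The 273 rows were not one family. By their descriptions 85 rows (31.1%) were BAHD-type, that is, transferase domain or family proteins with no other qualifier, benzoyltransferases, and an anthocyanin acyltransferase. A larger group, 113 rows (41.4%), were UDP-sugar glycosyltransferases, which join sugars to small molecules and entered because the table spells them glucosyl and not glycosyl. The other 75 rows comprised 16 GNAT-type N-acyltransferases, 9 lipid acyltransferases, 4 anthranilate synthases, 20 other sugar transferases, 12 prenyl transferases and 14 rows of other kinds. The label BAHD-type therefore holds for 85 of the 273 rows, and even there it rests on the wording alone, since no description contains the word BAHD. The account below is led by these 85 rows.

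In the PGD1:Roc10 library 2 BAHD-type genes were far lower than in NT, OS06G0699100 by 12.9-fold and the anthranilate N-benzoyltransferase-like OS11G0182200 by 5.34-fold. Another 2 were far higher, OS12G0458100 by 20.6-fold and OS10G0106600, which was listed at 0 in NT. The other 29 measured BAHD-type rows lay within 2-fold. Differences are taken on the log2(FPKM + 1) scale as the PGD1:Roc10 value less the NT value, and a row is called 2-fold higher or lower when this difference is at least 1 in size. Rows with a mean of at least 1 FPKM over both libraries are called measured.

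Of the 85 BAHD-type rows 33 were measured and 52 were not. The 2 rows called higher were 6.06% of the measured rows, beside 2.08% of all 21679 measured rows without short RNAs, and the 2 called lower were also 6.06%, beside 1.02% of all. Both genes called lower were already known from earlier work on these values when the set was drawn up, so nothing is read from these shares. Over all 273 rows 153 were measured, with 8 called higher and 3 called lower. The median difference was -0.19 for the measured BAHD-type rows, -0.04 for all measured members and -0.01 for all measured rows without short RNAs. Among all rows past 2-fold 67.0% were higher in PGD1:Roc10 as deposited. With total FPKM set equal in both libraries, short RNA rows included in the total, 52.7% were higher. This scaling, meant below wherever total FPKM is set equal, moved the median of all measured rows to -0.19. With short RNA rows left out of the total 69.4% were higher, and with the median ratio over measured rows set to 1 it was 67.2%.

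**Figure D1:**
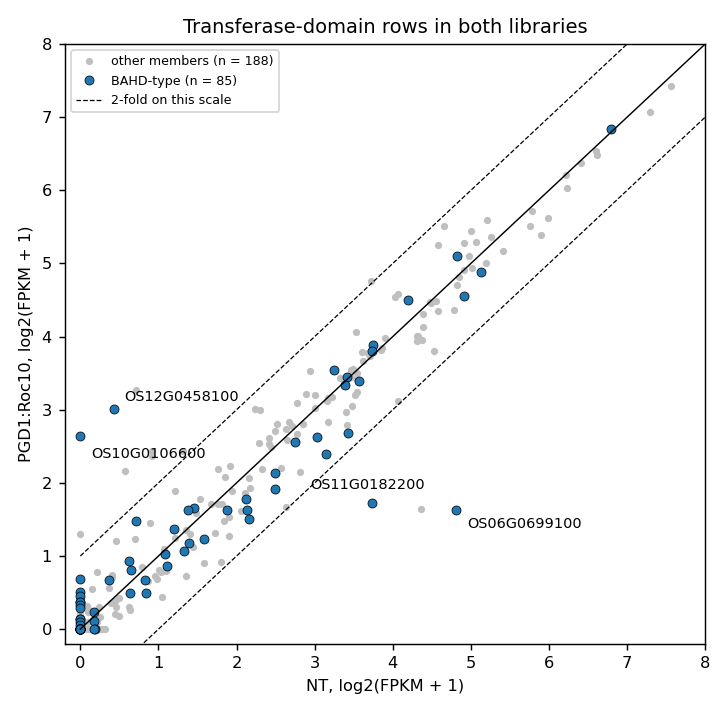
Level of each of the 273 rows in NT (horizontal axis) and in PGD1:Roc10 (vertical axis), both as log2(FPKM + 1), with 1 library each. The 85 BAHD-type rows are blue and the 188 others grey, and the dashed lines mark a 2-fold difference on this scale. OS06G0699100 and OS11G0182200 lie below the lower line, OS12G0458100 and OS10G0106600 above the upper one, and the other BAHD-type rows lie between the lines.

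OS06G0699100 (chromosome 6, 29381131 to 29382672) is described only by its transferase domain. Its level was 27.1 FPKM in NT but 2.10 FPKM in PGD1:Roc10, a log2 difference of -3.18. Among the 33 measured BAHD-type rows it ranked 5 in NT and 23 in PGD1:Roc10. Its locus also holds OS06G0699050, annotated as a hypothetical protein, at 15.3 FPKM in NT and 0.674 FPKM in PGD1:Roc10. Both rows of this locus were low in the same library, and the reads of overlapping rows may have been divided between them. The authors' deposited table gives OS06G0699100 p = 0.0014 and q = 0.167 and did not call it.

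OS11G0182200 (chromosome 11, 4128532 to 4130570) is described as similar to anthranilate N-benzoyltransferase protein 1, an enzyme type that benzoylates anthranilate, and in carnation it takes part in making defence phytoalexins. It gave 12.3 FPKM in NT and 2.30 FPKM in PGD1:Roc10, a log2 difference of -2.01, and shares its locus with no measured row. The only other row with the same description, OS08G0543400, gave 27.4 FPKM in NT and 33.4 FPKM in PGD1:Roc10. The 2 genes of this description thus differed in direction, one well below and one slightly above its NT level. In the authors' deposited table OS11G0182200 has q = 0.346 and OS08G0543400 was not called either.

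OS12G0458100 (chromosome 12, 15998271 to 16005479), a transferase family gene, gave 0.344 FPKM in NT and 7.08 FPKM in PGD1:Roc10. It ranked 32 of 33 in NT and 12 in PGD1:Roc10, and the authors' deposited table gives it q = 0.125. OS10G0106600 (chromosome 10, 468552 to 469935), similar to a transferase family protein, had an NT level listed at 0 and reached 5.21 FPKM in PGD1:Roc10. It was the 1 BAHD-type row called significant in the authors' deposited table, with q = 0.0111, among 41 that the table tested. Over all rows without short RNAs the authors' deposited table called 0.577% of those tested. Both genes passed the filter through the PGD1:Roc10 library alone, so a row as low in both libraries would not have been counted.

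Of the 10 BAHD-type rows with the highest mean level, OS06G0699100, described above, was the 1 past 2-fold. OS09G0422000, a transferase family gene, was the most abundant BAHD-type row at 110 FPKM in NT and 113 FPKM in PGD1:Roc10. This was 3.23 times the next highest level in NT and 3.39 times that in PGD1:Roc10, and it made up 28.2% and 31.8% of the FPKM summed over the 85 rows. A short RNA row shares its locus. Next by mean level came OS07G0414000, at 34.1 FPKM in NT and 28.6 FPKM in PGD1:Roc10. OS06G0184900 gave 29.2 and 22.5 FPKM, and OS05G0136900 gave 17.3 and 21.6 FPKM. None of the other 9 rows differed by as much as 1.5-fold. OS02G0820400 stood at 12.4 FPKM in NT and 13.8 FPKM in PGD1:Roc10, OS11G0644500 at 12.3 and 12.9 FPKM, OS06G0150600 at 10.9 and 9.50 FPKM and OS02G0485000 at 9.65 and 9.88 FPKM. In all, 7 BAHD-type rows reached 10 FPKM in both libraries. The summed level of the 85 rows was 391 FPKM in NT and 356 FPKM in PGD1:Roc10. Without the 4 genes past 2-fold, the other 29 measured rows summed to 346 and 332 FPKM.

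**Figure D2:**
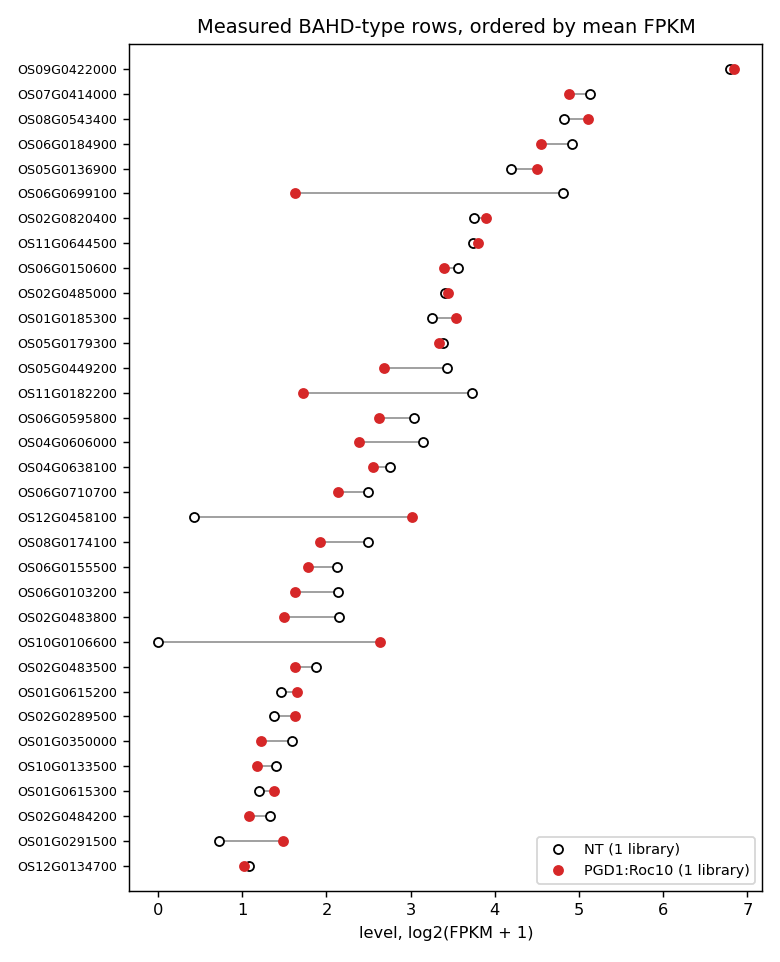
Level of the 33 measured BAHD-type rows as log2(FPKM + 1) on the horizontal axis, ordered by mean FPKM, with NT as open circles and PGD1:Roc10 as red circles (1 library each). A grey line joins the values of a gene, and it is long for OS06G0699100, OS11G0182200, OS12G0458100 and OS10G0106600 and short for most others.

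Among the 29 measured rows within 2-fold, 18 were lower in PGD1:Roc10 and 11 higher. With the genes past 2-fold included, 20 of 33 were lower (60.6%), beside 51.2% of all measured rows without short RNAs. With total FPKM set equal in both libraries 24 of 33 were lower. With short RNA rows left out of that total, or with the median ratio set to 1, it was again 20 of 33. The largest of the smaller differences downward was in OS04G0606000, at 7.87 FPKM in NT and 4.24 FPKM in PGD1:Roc10. OS05G0449200 gave 9.78 and 5.43 FPKM, and OS02G0483800 gave 3.45 and 1.83 FPKM. Upward it was OS01G0291500, at 0.645 FPKM in NT and 1.79 FPKM in PGD1:Roc10, a plain ratio of 2.78 that stays under 2-fold on the log2(FPKM + 1) scale because both levels are low. OS05G0449200 and OS01G0291500 share their loci with other measured rows. Of the measured rows, 30 reached 1 FPKM in both libraries, and of these 20 were lower and 10 higher.

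The 8 BAHD-type rows described by a substrate took both directions. Besides the anthranilate N-benzoyltransferase-like pair, 4 rows were similar to the taxol side-chain enzyme 3-N-debenzoyl-2-deoxytaxol N-benzoyltransferase, a name taken from yew. Of these OS01G0185300 gave 8.53 FPKM in NT and 10.6 FPKM in PGD1:Roc10, and the other 3 were not measured. OS06G0710700, similar to an enzyme that benzoylates benzyl alcohol, gave 4.65 and 3.38 FPKM. OS02G0289500, similar to anthocyanin 5-aromatic acyltransferase, which decorates anthocyanin pigments with aromatic acids, gave 1.60 and 2.09 FPKM. Apart from OS11G0182200 none of the 5 measured rows of this kind was past 2-fold. The 18 rows named by transferase domain held 4 measured genes, with OS06G0699100 the 1 past 2-fold, and the 59 named by transferase family held 24, with OS12G0458100 and OS10G0106600.

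BAHD-type genes lay on all 12 chromosomes, and 39 of the 85 rows stood within 100 kb of another one, in 14 groups. Within these groups 13 of 39 rows were measured (33.3%), beside 20 of the 46 rows that stood alone (43.5%). In 7 of the 14 groups exactly 1 row was measured, and in 5 none was. OS10G0106600 belongs to such a group of 4 on chromosome 10, between 431801 and 469935. Its relatives OS10G0105800 and OS10G0105850, which share 1 locus, were listed at 0 in both libraries, and OS10G0105933 had 0.297 FPKM in PGD1:Roc10 against a listed 0 in NT. OS12G0458100 has 1 relative within 100 kb, OS12G0459100, listed at 0 in both libraries. OS06G0699100 and OS11G0182200 have no other BAHD-type row within 100 kb.

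A group on chromosome 2, between 16678287 and 16807323, held the most rows. Of its 5 rows 4 were measured, and OS02G0485000 was the highest of them at 9.65 FPKM in NT and 9.88 FPKM in PGD1:Roc10. OS02G0483800 gave 3.45 and 1.83 FPKM, OS02G0483500 gave 2.67 and 2.10 FPKM, and OS02G0484200 gave 1.51 and 1.11 FPKM. So 3 of the 4 were lower in PGD1:Roc10, none past 2-fold, and OS02G0485800 was listed at 0 in both libraries. All 4 were lower with total FPKM set equal, and 3 under each of the other scalings. On chromosome 1 the neighbours OS01G0615200, at 1.75 FPKM in NT and 2.15 FPKM in PGD1:Roc10, and OS01G0615300, at 1.30 and 1.59 FPKM, were both slightly higher. Each of the neighbours on chromosome 1 shares its locus with another measured row. Such sharing is not flagged at every mention. It held for 11 of the 33 measured BAHD-type rows, among them OS02G0485000, OS06G0184900 and OS01G0185300.

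Most genes next to the 4 outlying genes did not move with them. In the 5 rows on either side of each of the 4 genes, 21 rows outside the gene's own locus were measured and 1 was past 2-fold. Around OS06G0699100 the 7 measured neighbours differed by between -0.24 and 0.04 on the log2 scale. Around OS11G0182200 the 8 measured neighbours differed by between -0.08 and 0.26. A further neighbour of OS11G0182200, the hypothetical conserved gene OS11G0182500, was under the filter, at 1.82 FPKM in NT and listed at 0 in PGD1:Roc10, and the authors' deposited table called it with q = 0.0111. Around OS12G0458100 the 4 measured neighbours differed by between -0.39 and -0.01. Near OS10G0106600 only 2 neighbours were measured, and the hypothetical conserved gene OS10G0105900, at 2.35 FPKM in NT and 0.317 FPKM in PGD1:Roc10, differed in the opposite direction to it.

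**Figure D3:**
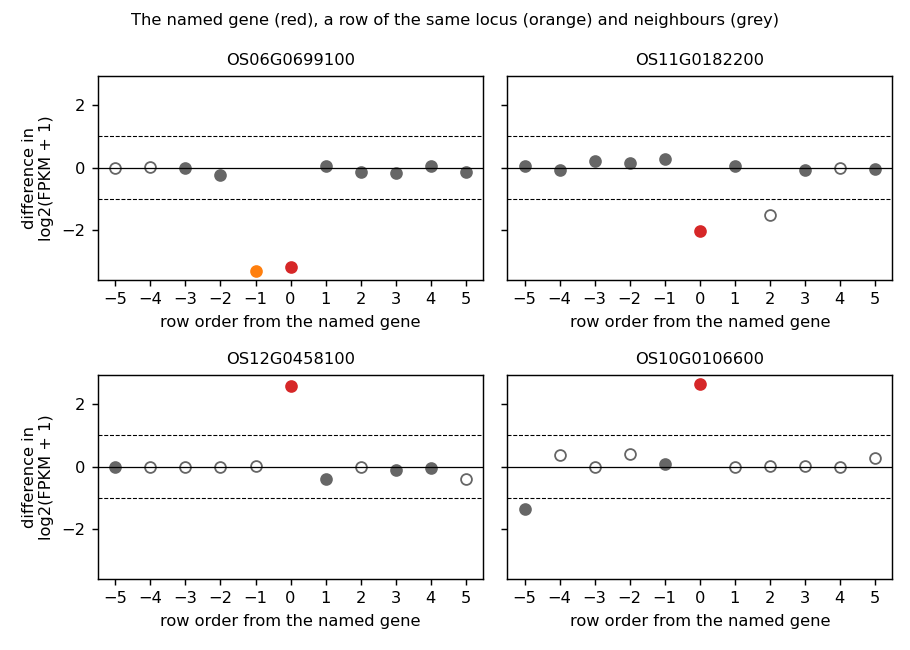
Difference in log2(FPKM + 1), PGD1:Roc10 minus NT, of each of the 4 BAHD-type genes past 2-fold (red) and of the 5 rows on either side in chromosome order (grey, with a row of the same locus in orange). Open circles are rows under a mean of 1 FPKM and dashed lines mark 2-fold. Apart from the orange row beside OS06G0699100, 1 filled neighbour lies past a dashed line, OS10G0105900 near OS10G0106600.

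The 52 BAHD-type rows under the filter were low or unseen in these leaves. Of all 85 rows 30 were listed at 0 in both libraries, 12 in NT alone and 2 in PGD1:Roc10 alone. Among all 37645 rows without short RNAs 7632 were listed at 0 in both libraries. Measured rows made up 38.8% of the BAHD-type rows, beside 57.6% of all rows without short RNAs. For BAHD-type rows under the filter the highest level was 1.16 FPKM in NT and 0.899 FPKM in PGD1:Roc10. Measured rows were more frequent among those whose description cites a rice full-length cDNA: 28 of the 51 rows with one were measured (54.9%), beside 5 of the 34 rows without (14.7%). OS06G0699100 and OS10G0106600 are among the 5 measured rows without such an entry.

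The 188 members outside the BAHD-type class gave 6 rows called higher (5%) and 1 called lower (0.833%) among 120 measured, beside 2.08% and 1.02% of all measured rows without short RNAs. Of the 64 measured UDP-sugar glycosyltransferases 5 were 2-fold higher (7.81%) and 1 was 2-fold lower (1.56%), against the same 2.08% and 1.02%. OS10G0178500 was the lower one, at 19.6 FPKM in NT and 2.11 FPKM in PGD1:Roc10. OS07G0490100 gave 0.638 and 8.61 FPKM, OS10G0442400 0.486 and 3.49 FPKM, and OS01G0597800 0.892 and 4.43 FPKM. OS10G0442400 shares its locus with another measured row. Of all 8 members called higher, 6 were under 1 FPKM in NT and passed the filter through the PGD1:Roc10 library alone. Among all measured rows called higher 43% were under 1 FPKM in NT. Nothing is read from the shares of rows called higher. The smallest differences past 2-fold were in OS01G0805400, at 1.48 and 4.43 FPKM, and OS01G0734800, at 12.2 and 26.2 FPKM. Just short of 2-fold were OS10G0122000, at 5.20 and 2.19 FPKM, and OS02G0755600, at 15.8 and 7.70 FPKM. The glycosyltransferase OS05G0527700 was under the filter, with 1.48 FPKM in PGD1:Roc10 against a listed 0 in NT, and the authors' deposited table called it with q = 0.0432. The most abundant members of all, OS01G0179600 at 189 and 171 FPKM and OS11G0599200 at 155 and 133 FPKM, are of this class. OS04G0320700 gave 97.0 and 88.2 FPKM, OS02G0206100 95.9 and 92.1 FPKM and OS11G0145200 84.0 and 82.0 FPKM, so the abundant glycosyltransferases were near level in both libraries.

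Anthranilate synthases, which make anthranilate from chorismate at the head of the tryptophan pathway, had 3 of 4 rows higher in PGD1:Roc10 under the deposited and all 3 other scalings, none past 2-fold. The beta chain-like OS04G0463500 gave 22.9 FPKM in NT and 37.1 FPKM in PGD1:Roc10, and OS03G0718000, also beta chain-like, 4.75 and 6.02 FPKM. The component I-like OS03G0264400 gave 15.7 FPKM in NT and 23.02 FPKM in PGD1:Roc10. OS03G0826500, the alpha 1 subunit, gave 3.99 and 3.55 FPKM and was the 1 lower row. The summed level of the 4 rows was 47.4 FPKM in NT and 69.6 FPKM in PGD1:Roc10, a ratio of 1.47.

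Among the 15 measured GNAT-type N-acyltransferases, a family named for acetyl transfer to amines, 1 was past 2-fold. This was OS03G0664800, at 0.891 FPKM in NT and 4.18 FPKM in PGD1:Roc10. OS03G0764000 gave 3.94 and 7.01 FPKM and OS03G0794300 gave 9.67 and 5.90 FPKM. None of the 7 measured lipid acyltransferases was past 2-fold. A pair on chromosome 2 described as lecithin:cholesterol acyltransferase family, whose members esterify sterols or cleave membrane lipids, had the highest differences among them, OS02G0590400 at 3.73 and 7.09 FPKM and OS02G0589000 at 10.6 and 15.6 FPKM. Differences stayed within 2-fold in all 8 measured rows of the other sugar transferases, all 9 of the prenyl transferases and all 13 of the remaining kinds.

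**Figure D4:**
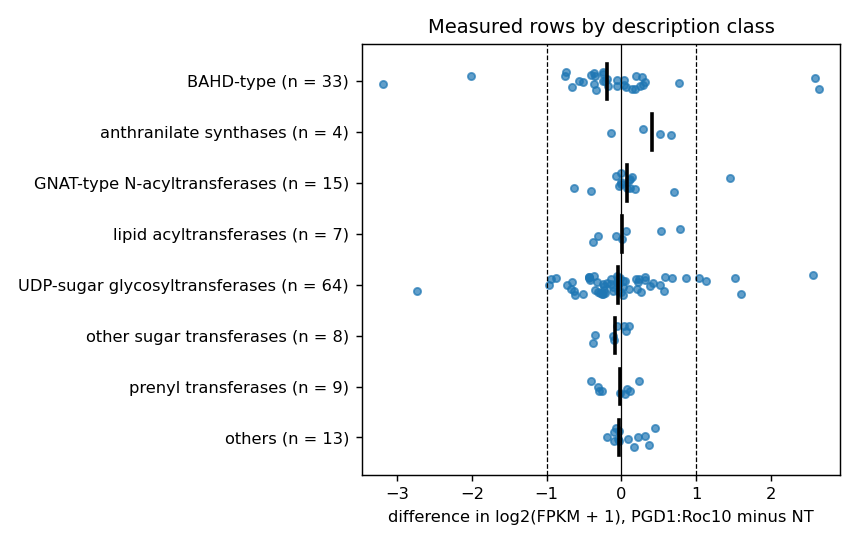
Difference in log2(FPKM + 1), PGD1:Roc10 minus NT, for each of the 153 measured rows by description class, with a bar at the class median and dashed lines at 2-fold. The BAHD-type class has its median at -0.19 with 2 rows past each dashed line, and the 4 anthranilate synthases have theirs at 0.40.

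Pathways that supply or share the substrates of BAHD enzymes were described from 9 lists of descriptions and symbols. These held 110 measured rows, of which 4 were 2-fold higher (3.64%) and 2 were 2-fold lower (1.82%), beside 2.08% and 1.02% of all measured rows without short RNAs. The lists were chosen with earlier results of these data known, so nothing is read from these shares. The lists' median difference was 0.03, beside -0.01 for all measured rows without short RNAs. BAHD genes described as hydroxycinnamoyltransferases, which the words of the rule leave out, were close to level: OS04G0500700 gave 79.5 FPKM in NT and 75.9 FPKM in PGD1:Roc10, and OS02G0611800 gave 50.1 and 48.5 FPKM. Both stand above every BAHD-type row but OS09G0422000.

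Phenylalanine ammonia-lyase, cinnamate hydroxylase and 4-coumarate ligase make the hydroxycinnamoyl-CoA donors. Of 18 measured genes in their list 9 were higher and 9 lower. All 18 were ammonia-lyase or ligase and ligase-like rows, so the cinnamate hydroxylase step was not covered. The ammonia-lyase-like OS04G0518400, at 2.51 FPKM in NT and 18.5 FPKM in PGD1:Roc10, and the ligase-like 4CLL6, at 2.74 and 9.62 FPKM, were past 2-fold. 4CLL6 shares its locus with another measured row. The most abundant rows of the list were lower, but within 2-fold. The ligase-like OS04G0683700 gave 955 FPKM in NT and 635 FPKM in PGD1:Roc10, and PAL gave 309 and 234 FPKM. Next by level, the ammonia-lyase-like OS02G0626400 gave 106 and 114 FPKM. The whole list summed to 1550 FPKM in NT and 1180 FPKM in PGD1:Roc10. Of 15 measured genes for cinnamoyl-CoA reductase and cinnamyl alcohol dehydrogenase, which turn the same thioesters into lignin monomers, CAD6 alone was past 2-fold, at 2.05 and 24.0 FPKM. The authors' deposited table, from 1 library per group, called OS04G0518400 and CAD6 significant and did not call 4CLL6. None of 3 caffeoyl-CoA O-methyltransferases was past 2-fold.

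Flavonoid synthesis genes, whose products some BAHD enzymes acylate, had 11 of 16 measured rows higher as deposited. With total FPKM, short RNA rows included, set equal in both libraries it was 7 of 16. With short RNA rows left out of that total, or with the median ratio set to 1, it was again 11 of 16. The dihydroflavonol reductase-like OS03G0184550 was 2-fold lower, at 9.69 FPKM in NT and 2.83 FPKM in PGD1:Roc10. The chalcone isomerase-domain gene OS11G0116300, at 13.6 and 27.1 FPKM, was just short of 2-fold higher on the scale used. In tryptophan and anthranilate synthesis 7 of 11 measured rows were higher as deposited, and 4 of the 11 are the anthranilate synthases above. It was 5 of 11 with total FPKM set equal, short RNA rows included, and 7 of 11 under each of the other scalings. Of 4 measured polyamine synthesis genes, which supply amine acceptors, the largest difference was in SPDSYN1, at 51.6 and 46.6 FPKM.

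Serine carboxypeptidase-type proteins include the other large plant family of acyltransferases, which uses glucose esters as donors. Of 20 measured rows the carboxypeptidase family gene OS11G0461000 was 2-fold lower, at 3.58 FPKM in NT and 0.507 FPKM in PGD1:Roc10, and the scpl50-like OS01G0215100 was 2-fold higher, at 0.825 and 3.63 FPKM. Glycosyltransferases of families 43 and 47 and exostosin-like proteins, groups that include builders of the arabinoxylan that BAHD enzymes decorate, had none of 21 measured rows past 2-fold. The list also sought family 61, but no measured row carried that description, so family 61 was not covered. The largest difference there was in OS10G0553600, at 13.7 and 8.25 FPKM.

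**Figure D5:**
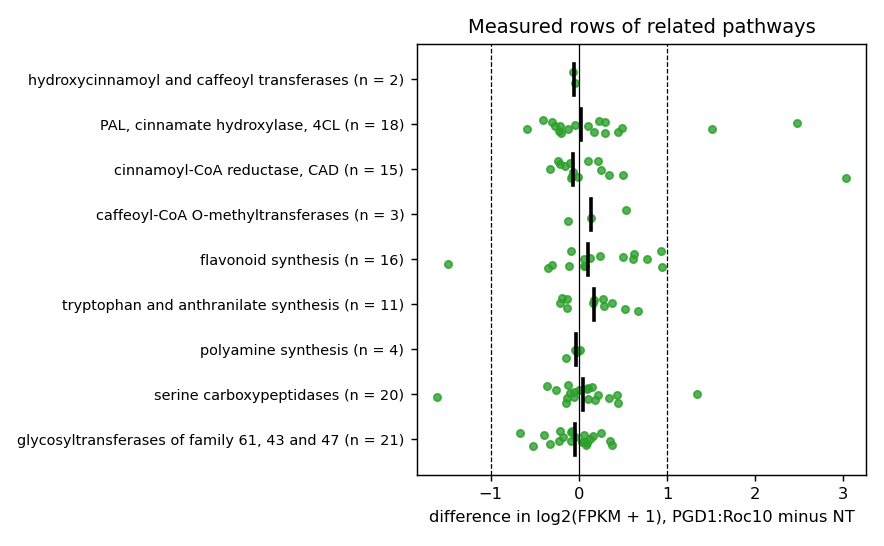
Difference in log2(FPKM + 1), PGD1:Roc10 minus NT, for the measured rows of 9 related lists, with a bar at each median and dashed lines at 2-fold. PAL is phenylalanine ammonia-lyase, 4CL 4-coumarate ligase and CAD cinnamyl alcohol dehydrogenase, and 6 points lie past the dashed lines, 4 of them higher. By description the points include no cinnamate hydroxylase and no glycosyltransferase of family 61.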

How the data were processed

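Per the file headers, the authors trimmed reads for quality, aligned them with TopHat 2.0.12 to IRGSP-1.0 with Ensembl Plants release 23, and quantified with Cufflinks and Cuffdiff 2.2.1. The deposited values are FPKM, made by the authors with 1 library per group. Libraries were strand-specific, per the labels' protocols. For counting, the strand option, library scaling and handling of multiply mapped reads: not given in the sources used here. A row's read depth is unknown, so no interval is given, and an exact 0 can be a failed estimate. The p-value and q-value columns are the authors' Cuffdiff output, copied and not recomputed. Locus coordinates are as deposited.

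Columns were assigned through the library codes in the labels. Differences are on the log2(FPKM + 1) scale, which understates changes of low genes, and plain ratios are of FPKM. The filter was a mean of 1 FPKM. Classes and lists were set by patterns on descriptions, and rows named by symbol alone were added to 4 lists by symbol. Members and lists were chosen with earlier results of these data known. Genes to name were picked by a rule: rows past 2-fold, the authors' calls, the highest levels, those next to the 2-fold line, the 3 largest differences per class or list, and member neighbours. Not every gene picked by the rule is printed. The highest BAHD-type rows and other genes were added after their values were seen. Alternatives were other pseudocounts, filters, scalings, fold thresholds and memberships. Code was tested on simulated data. It used pandas 2.3.3 and NumPy 2.4.6 under Python 3.11.15, and figures were drawn with matplotlib 3.10.9.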

Additional observations from a re-analysis of the deposited data

How the results depend on the processing

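No paired analysis was possible because each group has 1 library. Both BAHD-type genes that were lower and both that were higher stayed past 2-fold and kept their direction under each of the 3 other pseudocounts and 3 other scalings. With pseudocounts of 0.1 and 0.5, and at a 1.5-fold threshold, 3 BAHD-type rows were called higher in place of 2. A mean of at least 5 FPKM left 0 higher, 1.5-fold gave 5 lower, and leaving out members that share a locus left 1 lower, since OS06G0699100 shares its locus. Scaling both libraries to the same total FPKM, short RNA rows included, moved the median of all measured rows to -0.19. The split of all 2-fold rows moved from 67.0% higher to 52.7% higher. Under this scaling the median of all members was -0.23, that of the related lists -0.15 and that of the BAHD-type rows -0.36. It left 5 members 2-fold lower. With short RNA rows left out of the total the split was 69.4% higher, and the median of all measured rows was 0.02. Without a filter the BAHD-type median was 0, since many rows are listed at 0 in both libraries.

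Over all members the count of 2-fold lower rows was 8 with a pseudocount of 0.1 and 5 with 0.5. The count of 2-fold higher members was 3 with a pseudocount of 5, 1 at a mean of at least 5 FPKM and 4 at a 3-fold threshold, and a 1.5-fold threshold gave 15 higher and 15 lower. Restricting membership to the BAHD-type class gave 2 higher and a median of -0.19. In the related lists a pseudocount of 5 left 2 higher and 0 lower, a mean of at least 5 FPKM left 1 lower, a 1.5-fold threshold gave 10 higher and 4 lower, and a 3-fold threshold gave 2 higher and 1 lower.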

Other observations

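BAHD-type rows listed at 0 in 1 library alone were mostly at 0 in NT. In NT alone 12 rows were listed at 0, of which 11 were under the filter, with levels in PGD1:Roc10 from 0.0439 to 0.602 FPKM. In PGD1:Roc10 alone 2 rows were listed at 0, OS03G0185700 at 0.141 FPKM in NT and OS07G0421600 at 0.127 FPKM in NT. Over all rows without short RNAs the numbers were close, 1206 listed at 0 in NT alone and 1232 in PGD1:Roc10 alone. NT was the deeper library, and the part of depth in these rows was not tested. OS07G0550600 and OS10G0106600 had the highest PGD1:Roc10 levels among the 12 rows, 0.602 and 5.21 FPKM.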
